A study of Mus musculus with 39 samples.

Results

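CD8+ T cells sorted from mouse fibrosarcomas were compared between 2 faecal transplant arms, both treated with anti-PD-1, over 10 of the 39 libraries of the series. The members were taken by their labels: the libraries named CD8-16 to CD8-20 came from mice given stool of the CZA+DAV132 arm and then anti-PD-1 (n = 5), and CD8-6 to CD8-10 from mice given stool of the CZA arm and then anti-PD-1 (n = 5). All were wild-type C57BL/6 mice, all received a faecal microbiota transplant (FMT) of stool labelled HV that had 6 days of exposure to its arm's treatment, and all carried MCA-205 tumours, a fibrosarcoma line syngeneic to that strain, so no library lacks FMT, CZA or a tumour. The tumour cells were implanted under the skin 2 weeks after the FMT. Once a tumour measured 25 to 35 mm2, its host was injected 4 times at intervals of 3 days with 250 µg of the anti-PD-1 clone RMP1-14 (the other 10 CD8 libraries are from hosts given the isotype antibody 2A3), and tumours were taken 2 days after the last dose. The cells were sorted in a repeat experiment that used the transplant material of an earlier experiment, whose tumours gave 19 libraries labelled bulk tumour. The labels tie no library to a named mouse or donor, so a p-value here speaks of the scatter among libraries only, and an arm is a stool treatment that the libraries of that arm share rather than repeat.

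PD-1 is an inhibitory receptor that T cells raise after antigen contact, and antibodies against it let tumour-infiltrating CD8+ T cells signal more strongly through their antigen receptor. That receptor switches on NF-kB and AP-1, which induce early response genes together with their own brakes, and drives the making of receptors such as CTLA-4 and ICOS, of proteasomes and of respiratory chain subunits. DAV132 is an adsorbent given by mouth that takes up drug residues in the gut, and the spelled-out name of CZA is not given in the sources used here. The comparison addresses whether the sorted cells differ with the stool arm when PD-1 is blocked.

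Expression was deposited as TPM, a level relative to transcript length and to the library's total. Shares of the total were unequal between the libraries before any gene was compared. Repeat entries, which are 26 predicted genes made of satellite or simple repeats, held 29.5% ± 24.8 of the TPM in CZA+DAV132 libraries and 9.48% ± 4.89 in CZA libraries (SD, n = 5 each; exact two-sided permutation p = 0.0238, smallest possible 0.00794). CD8-19 stood highest with 72.3%, of which 51.1% were satellites, and CD8-16 followed with 29.3%. Without CD8-19 alone the difference of 20.0 points came to 9.35, and without both libraries the means were 15.4% and 9.48% (exact p = 0.143, smallest possible 0.0357). Olfactory and vomeronasal receptor genes, which T cells do not use and which therefore serve as a measure of background, held 0.0201% in CZA+DAV132 libraries and 0.0111% in CZA libraries (exact p = 0.0317). CD8-16 also stood apart in T cell content: its T cell marker genes summed to 6385 scaled TPM, against 11310 to 12090 in the other CZA+DAV132 libraries and 10820 to 14860 in CZA libraries.

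**Figure D1:**
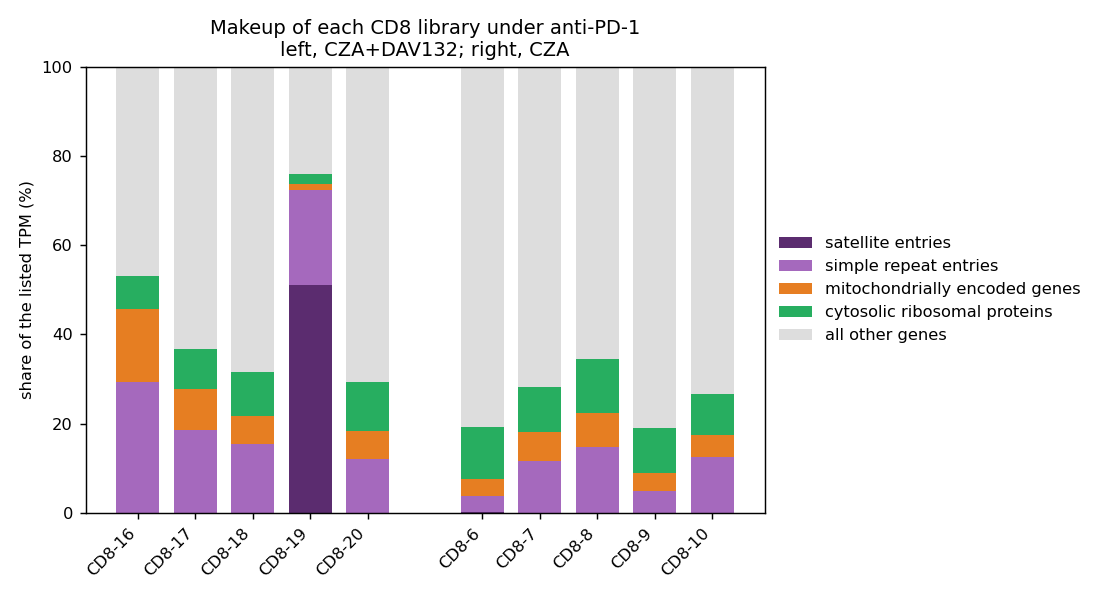
Share of the listed TPM (%) that satellite entries, simple repeat entries, mitochondrially encoded genes and cytosolic ribosomal proteins held in each CD8 library under anti-PD-1, with CZA+DAV132 on the left and CZA on the right. CD8-19 is 72.3% repeats and CD8-16 29.3%, against 3.83% to 14.8% in CZA libraries.

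Because a library full of repeats shows every other gene too low, each library's TPM was divided by a median-ratio factor, the median over 11992 genes of its ratio to the geometric mean of all 20 CD8 libraries. The factors were 0.347 to 1.17 in CZA+DAV132 libraries and 1.01 to 1.22 in CZA libraries. These scaled TPM are the levels given below unless deposited TPM are named, and log2 changes are of scaled TPM plus 1, CZA+DAV132 minus CZA. With the deposited TPM the median change of all genes was -0.40, with the factors it was -0.01, and with factors from the genes of at least 20 TPM it was 0.14. Cd8a, a chain of the CD8 co-receptor, was at 139.6 in CD8-16 and at 246.6 to 269.4 in the other CZA+DAV132 libraries, against 225.7 to 315.1 in CZA libraries. That level does not by itself show a clean sort, because libraries labelled bulk tumour, described next, held as much. Cd4 was at 1.21 to 6.69 in CZA+DAV132 and 0.499 to 1.32 in CZA libraries. In sorted populations measured in bulk, fewer cells of a type and less RNA per cell cannot be told apart.

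The libraries labelled bulk tumour, which are set beside the CD8 libraries further on, held T cell transcripts at levels near those of the sorted cells. They also held more of some stromal markers. Each table was scaled on its own, so levels across them are only set side by side. Cd8a was at 192.7 to 311.5 scaled TPM in bulk CZA+DAV132 libraries and at 322.8 to 353.1 in bulk CZA libraries, as high as in the sorted cells, and Gzmb, a granzyme of killer cells, averaged 941.4 in bulk CZA+DAV132 libraries and 1128 in bulk CZA libraries. Cd4 averaged 3.45 in bulk CZA+DAV132 libraries and 1.647 in bulk CZA libraries, and Foxp3, which marks regulatory T cells, 0.824 in bulk CZA+DAV132 libraries and 0.204 in bulk CZA libraries. T cell markers summed to 5889 to 11290 in bulk CZA+DAV132 libraries and 7773 to 13560 in bulk CZA libraries. Fibroblast and fibrosarcoma markers summed to 630.5 to 1264 in bulk CZA+DAV132 libraries, against 369.8 to 1054 in the CD8 libraries of that arm. For CZA the sums were 489.8 to 1065 in bulk and 234.2 to 619.7 in CD8 libraries. Endothelial markers, nearly all Pecam1, summed to 1874 to 7963 in bulk CZA+DAV132 libraries, against 421.3 to 3974 in CD8 libraries. For CZA they summed to 918.4 to 2665 in bulk and 206.1 to 723 in CD8 libraries. Single libraries of the 2 sets also resembled each other. The 10 CD8 libraries under anti-PD-1 were first matched only to bulk libraries of their own arm and antibody, with the mean of each library's own group taken off. Over 4890 genes each was most like a different one of these, and the 69 receptor V segments, which differ between T cell clones, named the same 10 pairs. The pair CD8-19 and T-026 had a correlation of 0.701 over the genes and 0.451 over the segments, and CD8-16 and T-023 had 0.556 and 0.226. The lowest of the 10 pairs was at 0.175 over the genes (CD8-7 and T-990) and 0.15 over the segments (CD8-20 and T-029). All bulk libraries were then searched, with the mean of each set taken off. The most alike was of the same arm and antibody for 10 of 10 over the genes and 8 of 10 over the segments. There CD8-18 and CD8-20 both named T-030 over the genes, and over the segments CD8-6 named T-986 and CD8-8 named T-023. T-026 held 51.3% repeats and CD8-19 72.3%, of which satellites were 50.7% and 51.1% of the TPM. T-023 had the lowest Cd8a and the highest mitochondrial share of its group (10.8%) as CD8-16 did. Genes are not independent replicates, so these correlations are descriptions. The labels place the sets in separate experiments, and whether they share animals or material was not tested, so no bulk value below counts as independent support.

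Few genes passed the test, and those that did were lower with DAV132. Of 12942 genes tested in limma at an adjusted p under 0.05, 0 were higher (0%) and 3 were lower (0.0232%): Coa7, an assembly factor of the respiratory chain, and the processed pseudogenes Rpl13-ps6 and Gm10108. At an unadjusted limma p under 0.05 there were 2711 genes (20.9%), 1318 higher (10.2%) and 1393 lower (10.8%). Where limma's array weights were used, which give less weight to libraries that scatter, 218 genes were higher (1.68%) and 562 lower (4.34%), and CD8-16, CD8-19 and CD8-8 had the lowest weights, 0.269, 0.466 and 0.496. The counts turned on single libraries. Without CD8-8 there were 147 higher and 389 lower, without CD8-20 217 and 73, without CD8-16 0 and 7, without CD8-7, CD8-18 or CD8-19 0 and 1, and without CD8-6 0 and 0. In a fit of the 10 libraries alone no gene passed, with 2253 genes at an unadjusted limma p under 0.05.

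All 5 CZA+DAV132 libraries lay below all 5 CZA libraries for 230 genes (1.78% of those tested) and above them for 154 (1.19%). The 2 sets differed in kind. In deposited TPM averaged over both groups, genes on the lower side had a median level of 47.0, genes on the higher side 4.38, and all tested genes 6.71. A transcript with a dinucleotide repeat of 31 or more bases was present in 28.6% of the genes on the higher side, in 4.78% on the lower side and in 11.1% of all genes. The longest transcript of a gene had a median of 4210 bases on the higher side, 2245 on the lower side and 2938 over all genes. The parts of transcript length and of the repeat-rich libraries in the higher side were not tested. The same tilt ran through the whole table, with levels here as deposited TPM averaged over all 20 CD8 libraries. The median log2 change was 0.09 for the 5395 genes under 5 TPM, -0.01 for 4001 genes from 5 to 20 TPM, -0.15 for 2467 genes from 20 to 100 TPM and -0.26 for the 1079 genes above that. Without CD8-16 and CD8-19 these medians were 0.06, 0.01, -0.10 and -0.21. Leaving out libraries makes genes without overlap more frequent by construction, so a rise in their counts is no result in itself. The counts were 554 lower and 452 higher without CD8-16 and CD8-19, and grew by over 1.5 times without CD8-7 (351 and 236), CD8-8 (787 and 472), CD8-16 (412 and 272), CD8-20 (388 and 704) or CD8-10 (297 higher). They also hung on the scaling: factors from genes of at least 20 TPM gave 71 lower and 388 higher, the deposited TPM gave 50 higher, and TPM rescaled without repeats, mitochondrial genes and small non-coding RNAs gave 138 lower and 220 higher.

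**Figure D2:**
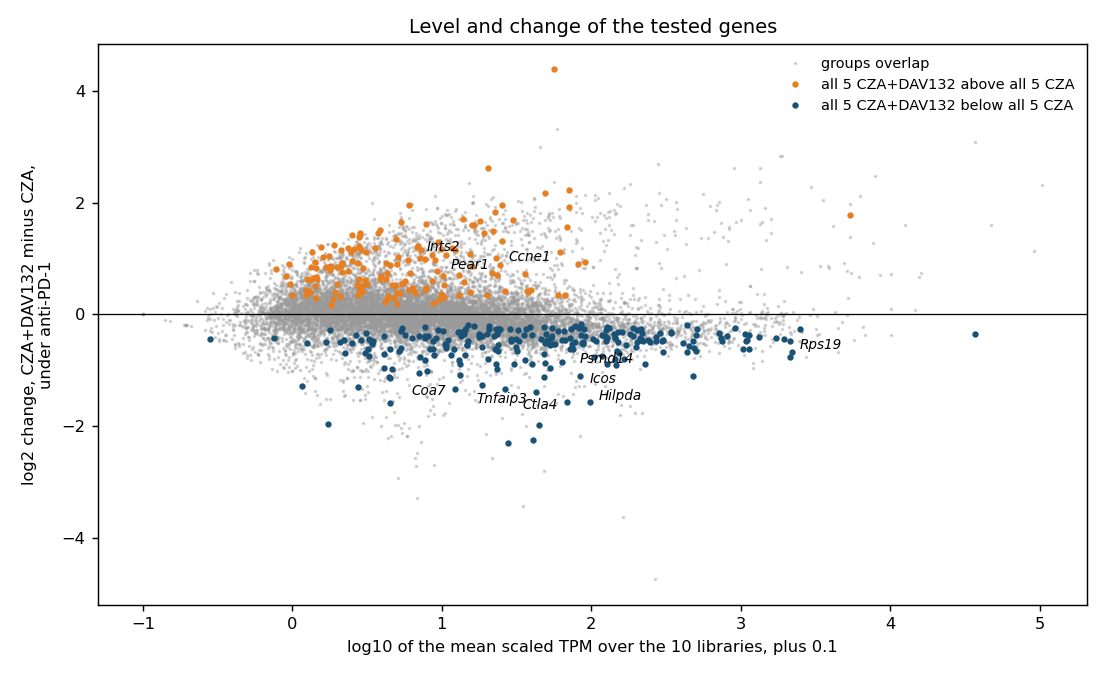
Each point is a gene tested in the anti-PD-1 CD8 libraries, with its level (log10 of mean scaled TPM plus 0.1 over the 10 libraries) against its log2 change, CZA+DAV132 minus CZA. Genes whose 5 CZA+DAV132 libraries all lay below the 5 CZA libraries (230) sit at higher levels than those whose libraries all lay above (154).

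Coa7 had the smallest p of all genes. It encodes a mitochondrial intermembrane space protein needed to build cytochrome c oxidase, and lies on chromosome 4 at chr4:108328140-108341544 in GRCm38 (ENSMUSG00000048351). Its level was 6.03, 9.27, 6.89, 4.11 and 6.49 scaled TPM in CD8-16 to CD8-20, against 23.1, 17.3, 15.4, 16.2 and 17.3 in CD8-6 to CD8-10. Every CZA+DAV132 library was under every CZA library, and the lowest CZA value was above the highest CZA+DAV132 value by more than either group's SD (means 6.56 ± 1.85 and 17.9 ± 3.02, n = 5 each). The log2 change was -1.34 (SE 0.19, limma adjusted p = 0.0101). Without CD8-16 and CD8-19 it was -1.14 (limma adjusted p = 0.0511), without CD8-6 the adjusted p was 0.0546, and in the fit of the 10 libraries alone it was 0.129.

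Promoters are shown for Coa7, the gene that passed, and for Hilpda and Tnfaip3, the genes of the hypoxia and NF-kB lists that came nearest to passing, so that the letters around their starts can be read beside their values. The sequences are RefSeq's on GRCm38.p6, 250 bases before to 50 after the start, 5′ to 3′ on the gene's strand: chr4:108327902-108328201 (+) for Coa7, chr6:29272238-29272537 (+) for Hilpda and chr10:19015361-19015660 (-) for Tnfaip3. Hilpda and Tnfaip3 have 2 starts each in the table. Capitals mark every match, on either strand, to AP-1 (TGANTCA), the cyclic AMP response element (TGACGTCA), the hypoxia element core (ACGTG or GCGTG) and the NF-kB consensus.
Coa7: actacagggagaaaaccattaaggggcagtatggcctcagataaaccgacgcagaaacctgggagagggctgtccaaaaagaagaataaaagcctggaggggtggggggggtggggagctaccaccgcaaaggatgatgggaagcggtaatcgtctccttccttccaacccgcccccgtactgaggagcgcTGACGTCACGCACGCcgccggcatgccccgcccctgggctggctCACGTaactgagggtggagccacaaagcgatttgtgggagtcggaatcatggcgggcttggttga
Hilpda: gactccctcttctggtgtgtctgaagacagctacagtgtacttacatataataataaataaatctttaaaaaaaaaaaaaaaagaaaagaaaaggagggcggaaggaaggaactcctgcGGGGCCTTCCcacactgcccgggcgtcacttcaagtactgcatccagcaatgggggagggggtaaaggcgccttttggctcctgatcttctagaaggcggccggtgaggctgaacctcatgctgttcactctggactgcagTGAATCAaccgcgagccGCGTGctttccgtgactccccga
Tnfaip3: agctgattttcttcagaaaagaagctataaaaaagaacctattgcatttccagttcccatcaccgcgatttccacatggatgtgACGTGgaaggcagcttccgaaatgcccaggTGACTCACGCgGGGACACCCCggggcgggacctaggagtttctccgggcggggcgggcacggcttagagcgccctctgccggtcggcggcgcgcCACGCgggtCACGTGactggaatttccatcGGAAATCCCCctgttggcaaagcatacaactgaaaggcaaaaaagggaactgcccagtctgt
Coa7 held the cyclic AMP element at base 192, overlapping the first of its 3 hypoxia cores. Hilpda held 1 AP-1 match, 1 hypoxia core and 1 NF-kB match. Tnfaip3 held 1 AP-1 match, which overlaps 1 of its 5 hypoxia cores, and 2 NF-kB matches. Over all 32851 promoters of the same length, AP-1 matches were present in 7.81%, the cyclic AMP element in 1.79%, a hypoxia core in 43.8% and the NF-kB consensus in 8.46%.

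Both pseudogenes that passed were also lower in every CZA+DAV132 library. Rpl13-ps6, a copy of a ribosomal protein gene on chromosome 3, was at 4.72, 5.41, 5.24, 3.28 and 5.86 scaled TPM in CZA+DAV132 libraries, against 10.7, 12.2, 10.1, 11.7 and 9.18 in CZA libraries (log2 change -1.01, limma adjusted p = 0.0294). Gm10108, a processed pseudogene on chromosome 5, averaged 162.6 ± 35.6 in CZA+DAV132 libraries and 296.3 ± 37.9 in CZA libraries (log2 change -0.88, limma adjusted p = 0.0337). Kallisto shares reads among near-identical transcripts, so these values cannot be told apart from those of their parent genes.

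Hilpda, a lipid droplet protein that hypoxia and activation induce, was among the largest differences that missed the threshold. It lies at chr6:29272488-29275446, next to the promoter printed above. Its level was 39.9, 54.2, 49.6, 57.2 and 34.8 scaled TPM in CZA+DAV132 libraries, against 126.9, 103.4, 104.8, 260.7 and 141.5 in CZA libraries. The groups were apart, with CD8-9 far above the rest of its group, and the log2 change was -1.56 (SE 0.31, limma adjusted p = 0.0782). The hypoxia-induced genes did not lie on one side. Of 28 tested, 8 were below 0, the median was 0.19, and 0.03 without CD8-16 and CD8-19, where 14 were below 0. Plod2, which modifies collagen, was at 12.3, 5.41, 5.72, 3.48 and 3.72 in CZA+DAV132 libraries, against 2.04, 3.89, 2.57, 3.16 and 2.52 in CZA libraries (log2 change 0.79, limma adjusted p = 0.112). With the deposited TPM the median of this list was -0.25, above the -0.40 of all genes.

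Early response genes of antigen receptor signalling lay below 0 in nearly every member, though none passed the test. Of 34 tested genes of the AP-1, immediate early and NF-kB list, 33 were below 0 (50.9% of all tested genes were), with a median log2 change of -0.32 against -0.01 for all genes. The members of this list, as of all function lists, were chosen with earlier results of these data known, so such counts are descriptions. Set against the median of all genes, the list's median was between -0.40 and -0.28 under the 5 scalings and without CD8-16 and CD8-19. The groups did not overlap for 7 of the 34 (1.78% of all genes): Tnfaip3, Dusp1, Fosl2, Junb, Nfkbia, Btg2 and Dusp10.

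Tnfaip3 encodes A20, which NF-kB induces and which switches NF-kB off. It was at 11.9, 27.1, 33.7, 25.1 and 22.4 scaled TPM in CZA+DAV132 libraries, against 53.7, 59.5, 69.6, 70.3 and 54.6 in CZA libraries. Even the highest CZA+DAV132 library, CD8-18, was well under the lowest CZA library (log2 change -1.38, SE 0.28, limma adjusted p = 0.0782). Nfkbia, the inhibitor that holds NF-kB in the cytoplasm, averaged 89.2 in CZA+DAV132 libraries and 165 in CZA libraries (log2 change -0.89, limma adjusted p = 0.127). Fosl2, an AP-1 subunit of the Fos family, was at 10.2, 9.80, 6.37, 7.46 and 6.13 in CZA+DAV132 libraries, against 15.0, 16.2, 20.7, 24.2 and 14.6 in CZA libraries (log2 change -1.09, SE 0.23, limma adjusted p = 0.099). Junb, an AP-1 partner of the Fos proteins, averaged 103 in CZA+DAV132 libraries and 187 in CZA libraries (log2 change -0.90, limma adjusted p = 0.112). For both AP-1 subunits no library crossed into the other group. Dusp1, a phosphatase that turns MAP kinases off, averaged 14.5 in CZA+DAV132 libraries and 38.6 in CZA libraries (log2 change -1.33, limma adjusted p = 0.112), and Btg2, an antiproliferative early gene, averaged 34.6 in CZA+DAV132 libraries and 63.9 in CZA libraries (log2 change -0.87, limma adjusted p = 0.112). Errfi1, an inducible feedback inhibitor of the EGF receptor, was at 18.4, 17.6, 14.9, 10.3 and 18.4 in CZA+DAV132 libraries, against 23.5, 26.96, 38.9, 36.9 and 24.6 in CZA libraries (log2 change -0.88, limma adjusted p = 0.0782). Outside these lists Txnl4a, a spliceosome protein, was at 24.03, 27.8, 27.2, 28.7 and 28.5 in CZA+DAV132 libraries, against 67.7, 52.3, 33.5, 63.0 and 45.9 in CZA libraries (log2 change -0.88, SE 0.17, limma adjusted p = 0.0782).

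Among inhibitory and co-stimulatory receptors, no gene passed the test, and in the list of inhibitory receptors and exhaustion 4 of 28 genes had groups that did not overlap, all on the lower side (1.78% of all genes). Ctla4, the inhibitory receptor that competes with CD28 for its ligands, was at 19.6, 38.6, 47.1, 38.0 and 28.8 scaled TPM in CZA+DAV132 libraries, against 90.2, 76.8, 83.9, 154.6 and 110.1 in CZA libraries. Its groups were apart by a wide margin, and its log2 change of -1.57 (SE 0.32, limma adjusted p = 0.0782) was the lowest of the 28 genes in its list. Icos, an inducible co-stimulatory receptor that lies near Ctla4 on chromosome 1, was at 21.6, 86.1, 49.3, 64.2 and 56.9 in CZA+DAV132 libraries, against 90.4, 114.1, 91.5, 158.9 and 109.4 in CZA libraries (log2 change -1.10, SE 0.31, limma adjusted p = 0.112). CD8-17 came within a few units of the lowest CZA library. Nr4a1, a nuclear receptor switched on by antigen receptor signals, was at 16.2, 22.1, 15.9, 12.3 and 11.8 in CZA+DAV132 libraries, against 29.6, 27.2, 33.4, 34.3 and 30.9 in CZA libraries (log2 change -0.98, SE 0.25, limma adjusted p = 0.112). Cd160 and Pdcd1lg2, a receptor of cytotoxic cells and a ligand of PD-1, were the other two of that list, besides Ctla4 and Nr4a1, whose groups did not overlap (log2 changes -0.80 and -0.88, limma adjusted p = 0.112 each).

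Pdcd1, the gene of PD-1 itself, was at 44.8, 131, 110, 129 and 94.5 scaled TPM in CZA+DAV132 libraries, against 112, 96.0, 65.1, 209 and 146 in CZA libraries (log2 change -0.28, SE 0.32, limma adjusted p = 0.655). Its groups overlapped, as did those of 4 other exhaustion genes, whose log2 changes were -0.16 for Lag3 (SE 0.33), -0.01 for Tigit (SE 0.47), 0.25 for Havcr2 (SE 0.38) and 0.47 for Tox (SE 0.20), with a limma adjusted p of 0.188 for Tox and above 0.75 for the receptors. These errors leave room for sizeable changes either way in the 3 receptors, so no statement of likeness follows. The signs were not firm: Lag3 and Tigit were at 0.025 and 0.18 with factors from genes of at least 20 TPM, and Havcr2 and Tox at -0.26 and -0.033 with the deposited TPM. Over the inhibitory list 17 of 28 genes were below 0 with a median of -0.09. In the co-stimulation list 20 of 27 were below 0 with a median of -0.26, and Tnfrsf4 (OX40, a co-stimulatory receptor) was at 46.8, 48.3, 42.0, 61.5 and 72.8 in CZA+DAV132 libraries, against 130, 87.3, 73.7, 118 and 61.8 in CZA libraries, which overlap (log2 change -0.76, limma adjusted p = 0.112). Without CD8-16 and CD8-19 that list's median was -0.06.

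Summed markers of other cells were compared as well, and no list passed. The 8 markers of CD4 and regulatory T cells, of which Ctla4 is 1, summed to 157.7 to 249.7 scaled TPM in CZA+DAV132 libraries and 270.1 to 466.5 in CZA libraries (exact p = 0.00794, the smallest possible; 0.0952 after adjustment over 12 marker lists). Most of that sum came from Tnfrsf18, also in the co-stimulation list, and Ctla4. They averaged 142.7 and 34.4 in CZA+DAV132 libraries, against 228.3 and 103.1 in CZA libraries. The defining members ran the other way, however: Foxp3 was at 0.525 to 2.76 in CZA+DAV132 and 0.168 to 0.757 in CZA libraries, and Cd4 is given above (log2 changes 0.73 and 0.75, limma adjusted p = 0.181 and 0.153). Macrophage and monocyte markers summed to 1170 to 1326 in CZA+DAV132 and 1193 to 2945 in CZA libraries, and natural killer cell markers to 553 to 901.2 in CZA+DAV132 and 781.5 to 1289 in CZA libraries. The natural killer list holds Gzma, also in the cytotoxic granule list, which averaged 239.4 in CZA+DAV132 and 342.5 in CZA libraries. That sum is therefore not one of other cells alone. Red cell and platelet markers summed to 104.4 to 1374 in CZA+DAV132 and 70.9 to 216.6 in CZA libraries, and endothelial markers to 421.3 to 3974 in CZA+DAV132 and 206.1 to 723 in CZA libraries, with Tek at 0 in all 10 libraries. Pecam1 alone was at 419 to 3972 in CZA+DAV132 and 197.9 to 717.5 in CZA libraries, so the endothelial sum is nearly that of 1 gene. Of the 12 lists, that of CD4 and regulatory T cells was the one whose ranges were apart. Dendritic cell markers summed to 191.4 to 487.4 in CZA+DAV132 and 128.4 to 435.3 in CZA libraries, and those of fibroblasts and fibrosarcoma to 369.8 to 1054 in CZA+DAV132 and 234.2 to 619.7 in CZA libraries. Markers of B cells, neutrophils, epidermis and muscle, and gamma-delta T cells summed to at most 280.8 in any library, with Ly6g, Ngp, Elane, Krt5, Krt15 and Myh4 at 0 in all 10. No marker list passed after adjustment, the lowest adjusted exact p being 0.0952, and their part in the differences of the receptors and early genes was not tested.

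**Figure D3:**
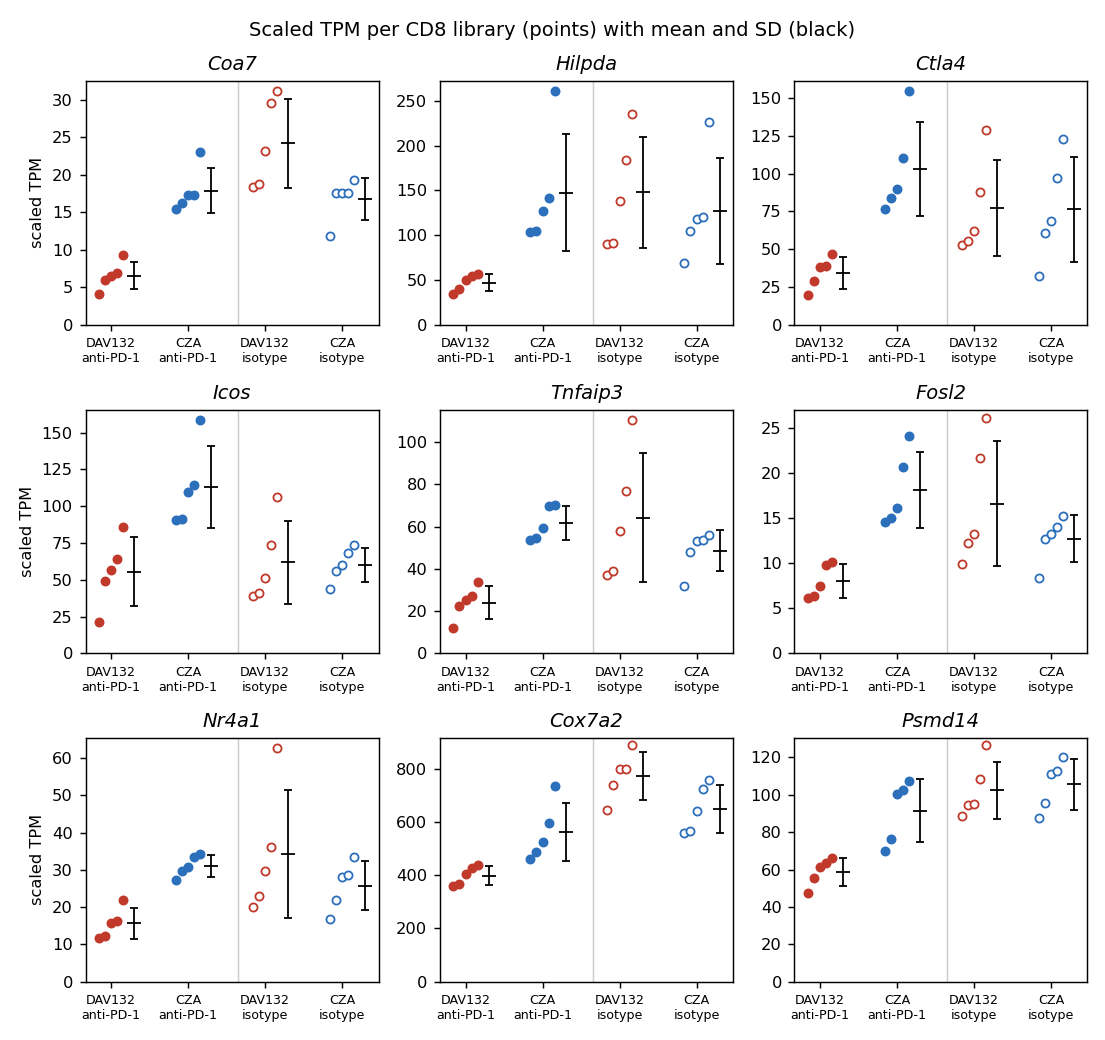
Scaled TPM of 9 genes in every CD8 library (points) with mean and SD (black), under anti-PD-1 and under isotype, CZA+DAV132 left of CZA in each pair. Under anti-PD-1 the CZA+DAV132 points lie wholly below the CZA points in each panel, and under isotype the groups do not separate that way.

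Nuclear genes of the respiratory chain lay slightly below 0 in nearly every member, and mitochondrially encoded genes lay above it. Of 37 tested subunits of complex I, 34 were below 0, with a median log2 change of -0.30, and 21 had an unadjusted limma p under 0.05 on the lower side (10.8% of all genes). Of 40 tested subunits of complexes II to V, 39 were below 0 with a median of -0.33, and 21 were at an unadjusted p under 0.05 on that side. None passed after adjustment. Array weights put 10 of the 37 and 13 of the 40 past the threshold, where 4.34% of all genes were. Without CD8-16 and CD8-19 the medians were -0.29 and -0.28, with 35 of 37 and 40 of 40 below 0. With factors from genes of at least 20 TPM, which move the median of all genes to 0.14, they were -0.11 and -0.15.

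Cox7a2, a subunit of cytochrome c oxidase, was at 360, 427, 365, 403 and 438 scaled TPM in CZA+DAV132 libraries, against 736, 598, 460, 526 and 489 in CZA libraries (log2 change -0.48, SE 0.13, limma adjusted p = 0.112). Atp5h, a subunit of ATP synthase, averaged 922.7 ± 67.6 in CZA+DAV132 libraries and 1271 ± 181.0 in CZA libraries (SD, n = 5 each; log2 change -0.45, SE 0.13, limma adjusted p = 0.112). Both pairs of groups were apart, as were those of Ndufa13, Ndufa11, Ndufa12 and Ndufb11 of complex I and of Cox6b1, Cox8a, Atp5g1, Atp5a1, Uqcr10 and Uqcrfs1. In all, 4 of 37 and 8 of 40 did not overlap (1.78% of all genes). These are highly expressed genes, and the 1079 genes above 100 TPM had a median of -0.26 as a whole.

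The 13 mitochondrially encoded subunits lay above 0 throughout, from 0.68 for mt-Co3 to 0.90 for mt-Nd5, with a median of 0.81, and none passed the test. In CD8-16 mt-Nd6 stood at 11230 scaled TPM, against 1913 to 4113 in the other CZA+DAV132 libraries and 1379 to 3501 in CZA libraries. Without CD8-16 and CD8-19 the median was 0.55. Mitochondrially encoded genes held 7.91% ± 5.55 of the TPM in CZA+DAV132 libraries and 5.35% ± 1.62 in CZA libraries (exact p = 0.421). The 25 tested assembly factors of cytochrome c oxidase had a median of -0.14 with 19 below 0. Apart from Coa7, none of them was past the threshold.

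Proteasome subunits likewise lay below 0 without passing. Of 31 tested subunits of the constitutive proteasome 30 were below 0, with a median log2 change of -0.36 in all libraries and without CD8-16 and CD8-19, and 17 had an unadjusted limma p under 0.05 on the lower side (10.8% of all genes). With array weights 16 of the 31 passed on that side (4.34% of all genes). Psmd14, the enzyme that strips ubiquitin from substrates, was at 47.6, 61.2, 55.3, 66.4 and 63.6 scaled TPM in CZA+DAV132 libraries, against 107, 76.5, 70.2, 103 and 100 in CZA libraries. It was the only subunit of that list whose groups did not overlap (log2 change -0.62, SE 0.14, limma adjusted p = 0.107). Psmb6, a catalytic subunit, was at 270, 312, 264, 277 and 284 in CZA+DAV132 libraries, against 526, 366, 294, 457 and 441 in CZA libraries, which overlap (log2 change -0.54, limma adjusted p = 0.112).

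In the list of MHC class I and the immunoproteasome, 18 of 23 genes were below 0 with a median of -0.14. Psme1, a subunit of the interferon-induced proteasome activator, was at 403, 426, 439, 438 and 462 scaled TPM in CZA+DAV132 libraries, against 701, 508, 532, 559 and 511 in CZA libraries (log2 change -0.36, SE 0.11, limma adjusted p = 0.112). Psmb8, an immunoproteasome catalytic subunit, was at 229, 352, 373, 452 and 354 in CZA+DAV132 libraries, against 828, 483, 347, 770 and 687 in CZA libraries (log2 change -0.78, limma adjusted p = 0.112). CD8-8 was the CZA library that crossed into the other group for Psmb8. Cytosolic ribosomal proteins had a median of -0.04 over 53 genes, near that of all genes, while Rps19 and Rpl4 did not overlap (log2 changes -0.48 and -0.42, limma adjusted p = 0.112 each). Rps19 was at 1929, 1708, 1738, 1546 and 2043 in CZA+DAV132 libraries, against 3022, 2356, 2579, 2392 and 2171 in CZA libraries. The medians of the MHC class I, cytochrome c oxidase assembly and ribosomal lists were 0.04, 0.02 and 0.14 with factors from genes of at least 20 TPM.

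Genes of effector function overlapped between the arms, though most of them lay below 0. Gzmb, the main killing protease of CD8 T cells, was at 674.9, 1336, 1172, 1576 and 1035 scaled TPM in CZA+DAV132 libraries, against 1264, 1309, 1252, 1798 and 1591 in CZA libraries (log2 change -0.36, SE 0.29, limma adjusted p = 0.515). Ifng, the effector cytokine interferon gamma, was at 136, 361, 285, 341 and 209 in CZA+DAV132 libraries, against 457, 390, 229, 422 and 256 in CZA libraries (log2 change -0.43, SE 0.33, limma adjusted p = 0.486). In both genes CD8-16 was the lowest of its group, as it was for Cd8a. The cytotoxic granule list had a median of -0.42 with 13 of 18 below 0, led by Serpinb9, which shields killer cells from granzyme B (log2 change -1.04, limma adjusted p = 0.112). Within it Gzmf and Gzmg were at 0.80 and 1.11, also without passing. With array weights Serpinb9 and Srgn of that list passed on the lower side (limma adjusted p = 0.0419 and 0.0382), as 4.34% of all genes did. Effector cytokines and chemokines had a median of -0.34 with 11 of 15 below 0, and none of either list had groups that did not overlap.

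The remaining lists held no gene that passed. CD3, CD8 and T cell receptor constant chains were below 0 in 9 of 9 (median -0.27) and in 6 of 9 without CD8-16 and CD8-19, with Trbc1, a receptor constant chain, at 455.9, 1141, 929.3, 809.7 and 861.5 in CZA+DAV132 libraries, against 2402, 2090, 948.7, 1412 and 1041 in CZA libraries (log2 change -0.87, limma adjusted p = 0.128). Proximal receptor signalling genes had a median of -0.19 with 19 of 23 below 0. Stem-like and memory genes had a median of -0.17 (15 of 18 below 0), including Tcf7 at -0.38 (SE 0.30, limma adjusted p = 0.498) and Ccr7, a lymph node homing receptor, at -1.17 (limma adjusted p = 0.114). Tissue residency genes had a median of -0.28 (11 of 15 below 0), where Bhlhe40, a transcription factor of resident cells, had groups that did not overlap (means 59.9 in CZA+DAV132 and 87.6 in CZA libraries, log2 change -0.53, limma adjusted p = 0.126). Medians were -0.17 for heat shock chaperones (14 of 18 below 0), -0.13 for glycolysis (13 of 21), -0.15 for ATF4 stress genes (16 of 23), -0.03 for cholesterol genes (14 of 23), 0.00 for the cell cycle (23 of 47) and 0.08 for the interferon response (16 of 41). With factors from genes of at least 20 TPM the signs of the stem-like, glycolysis, cholesterol and inhibitory medians turned (0.01, 0.04, 0.15 and 0.06), and with the deposited TPM those of the interferon and cell cycle lists turned (-0.40 and -0.49).

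**Figure D4:**
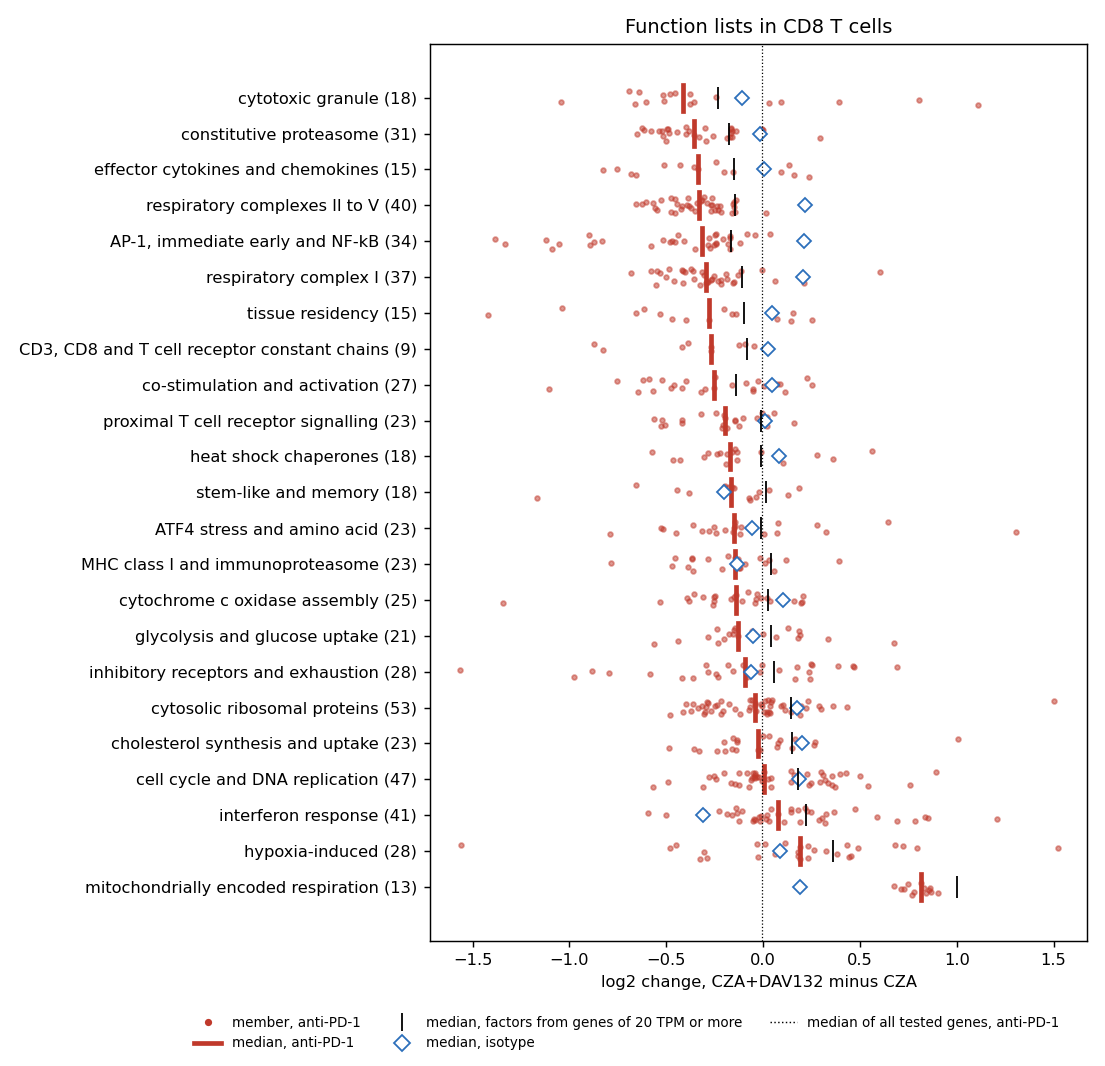
Log2 change (CZA+DAV132 minus CZA) of each tested gene of the 23 function lists (points) with the list's median under anti-PD-1 (red bar), the median with factors from genes of at least 20 TPM (black tick) and the median under isotype (blue diamond); the dotted line is the median of all tested genes. The respiratory and AP-1 lists have red bars near -0.3 and blue diamonds near 0.2, and mitochondrially encoded genes lie from 0.68 to 0.90.

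On the higher side no gene passed, and the 3 of smallest p with at least 5 TPM were L3mbtl2, Ints2 and Pear1. L3mbtl2, a chromatin protein of a repressive Polycomb complex, was at 8.70, 6.82, 5.69, 7.42 and 5.87 scaled TPM in CZA+DAV132 libraries, against 4.25, 3.495, 4.28, 4.92 and 4.12 in CZA libraries (log2 change 0.59, SE 0.13, limma adjusted p = 0.099). Ints2, a subunit of the Integrator complex, was at 6.98, 7.71, 8.38, 20.4 and 6.66 in CZA+DAV132 libraries, against 4.20, 4.31, 4.04, 3.65 and 4.09 in CZA libraries (log2 change 1.00, SE 0.22, limma adjusted p = 0.104). CD8-19, the library richest in repeats, held the outlying value, and without CD8-16 and CD8-19 the log2 change of Ints2 was 0.76. Pear1, a membrane receptor known from platelets, was at 11.2, 14.9, 13.3, 12.5 and 11.2 in CZA+DAV132 libraries, against 5.11, 7.77, 6.88, 8.93 and 8.93 in CZA libraries (log2 change 0.69, SE 0.15, limma adjusted p = 0.104). Ccne1, the cyclin that starts DNA replication, was at 32.8, 28.2, 21.7, 56.7 and 22.9 in CZA+DAV132 libraries, against 13.5, 13.9, 18.0, 14.6 and 21.03 in CZA libraries (log2 change 0.89, SE 0.20, limma adjusted p = 0.104), while Mki67, a marker of dividing cells, overlapped (log2 change 0.31, SE 0.15, limma adjusted p = 0.25).

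The same arms were set against each other under the isotype antibody. The pair of isotype groups (CZA+DAV132 with CD8-11 to CD8-15, CZA with CD8-1 to CD8-5) shares no library with the anti-PD-1 pair. There 3 genes passed (0.0232% of 12942), 2 higher and 1 lower, all of them predicted genes, and 710 (5.49%) had an unadjusted limma p under 0.05. Coa7 was at 29.5, 18.8, 31.1, 23.2 and 18.3 scaled TPM in CZA+DAV132 isotype libraries and at 17.6, 11.9, 17.5, 19.3 and 17.5 in CZA isotype libraries (log2 change 0.49, limma adjusted p = 0.905). The test of the difference between the effects called 1 gene (0.00773%), with 1985 (15.3%) at an unadjusted limma p under 0.05: it was Coa7, with an interaction of -1.83 (SE 0.26, limma adjusted p = 0.0166). It called none without CD8-11 or with the deposited TPM, and 2 genes with array weights.

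For the genes described above that missed the threshold, the difference between the antibodies did not pass either. For Ctla4 the log2 change was -1.57 under anti-PD-1 and 0.07 under isotype (interaction -1.63, limma adjusted p = 0.196). For Tnfaip3 the values were -1.38 and 0.30 (interaction -1.69), for Hilpda -1.56 and 0.22 (-1.78), for Fosl2 -1.09 and 0.30 (-1.39) and for Nr4a1 -0.98 and 0.32 (-1.29), with a limma adjusted p of 0.196 for each interaction. The medians of the AP-1 list, of complex I and of complexes II to V were 0.21, 0.21 and 0.22 under isotype, with 3 of 34, 4 of 37 and 7 of 40 below 0. The proteasome list was at -0.02 there, with 16 of 31 below 0. Interferon response genes ran the other way round, with a median of -0.31 and 38 of 41 below 0 under isotype. None of these list differences between antibodies was tested.

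The same arms under anti-PD-1 were also compared in the libraries labelled bulk tumour (CZA+DAV132 and CZA, n = 5 each), whose likeness to the CD8 libraries is given above. There 2 genes passed of 13326 (0.015%), both ribosomal protein pseudogenes, and 872 (6.54%) were at an unadjusted limma p under 0.05. No gene passed without library T-021, T-030, T-982, T-984, T-988 or T-990, 4 passed without T-029 and 8 without T-989. Groups did not overlap for 165 genes on the lower side (1.24%) and 119 on the higher side (0.893%). Without T-023 and T-026 together 4 passed.

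Genes apart in CD8 cells were mostly on the same side there, in libraries that resemble the CD8 libraries one by one. Of 224 genes of the lower CD8 set that were tested in the bulk libraries, 175 (78.1%) were below 0, where 48.0% of all genes were. Of 151 genes of the higher set, 124 (82.1%) were above 0, where 52.0% of all genes were. Without T-023 and T-026 the shares were 74.1% and 70.9%, and without CD8-16 and CD8-19 as well, which makes the sets 554 and 452 genes, they were 73.2% and 69.0%. Level moved with the tilt on both sides. Above 100 TPM, 81.0% of the 84 genes of the lower CD8 set were below 0 in the bulk libraries, and 64.8% of all genes were. Under 5 TPM, 85.9% of the 85 genes of the higher CD8 set were above 0 there, and 61% of all genes were. Groups did not overlap in either set for 27 genes on the lower side (11.7% of the CD8 set and 16.6% of the bulk set) and for 7 on the higher side (4.55% and 6.67%).

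The 27 include Ctla4, Icos, Tnfaip3, Fosl2, Nr4a1, Btg2, Bhlhe40, Psme1, Cox7a2 and Rpl4, but not Coa7. Ctla4 was at 44.8, 26.5, 60.1, 42.0 and 58.6 scaled TPM in bulk CZA+DAV132 libraries, against 314.1, 195.4, 180.4, 96.6 and 73.5 in bulk CZA libraries (log2 change -1.74). Icos was at 128.8, 48.6, 105.7, 78.6 and 92.0 in bulk CZA+DAV132 libraries, against 276.7, 205.5, 155.3, 191.1 and 220.6 in bulk CZA libraries (log2 change -1.25), so that all bulk CZA+DAV132 libraries were lower. Tnfaip3 was at 39.3, 15.0, 39.0, 32.0 and 35.8 in bulk CZA+DAV132 libraries, against 105.0, 76.1, 86.5, 81.4 and 61.6 in bulk CZA libraries (log2 change -1.38). Fosl2 was at 14.5, 11.3, 12.0, 11.1 and 12.1 in bulk CZA+DAV132 libraries, against 52.3, 23.1, 21.8, 33.9 and 31.3 in bulk CZA libraries (log2 change -1.28), and Nr4a1 was at 21.9, 21.9, 13.7, 7.58 and 10.4 in bulk CZA+DAV132 libraries, against 28.8, 24.4, 37.7, 39.2 and 34.2 in bulk CZA libraries (log2 change -1.16). Hilpda overlapped in the bulk libraries (log2 change -1.28), and so did Coa7, at 6.51, 5.55, 2.30, 4.68 and 2.41 in bulk CZA+DAV132 libraries, against 6.26, 8.10, 1.38, 4.97 and 15.8 in bulk CZA libraries (log2 change -0.47). None of these genes passed the test there. Cd8a was also lower in each bulk CZA+DAV132 library, at 192.7 to 311.5, against 322.8 to 353.1 in bulk CZA libraries (log2 change -0.31), and the part of T cell number in these values was not tested. The medians in the bulk libraries were -0.48 for the AP-1 list, -0.24 for complex I, -0.21 for complexes II to V and -0.27 for the proteasome, and 0.03 for all genes tested in both tables.

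**Figure D5:**
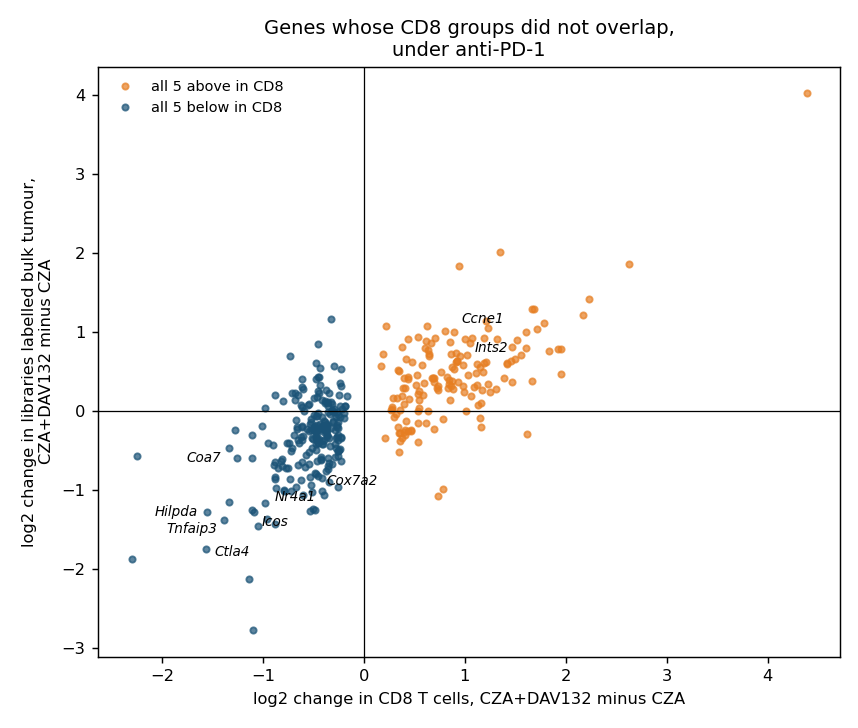
Genes whose groups did not overlap in the anti-PD-1 CD8 libraries, with their log2 change (CZA+DAV132 minus CZA) in CD8 T cells on the x axis and in the libraries labelled bulk tumour on the y axis. Of the genes on the lower side in CD8 cells 78.1% are below 0 in the bulk libraries, and of those on the higher side 82.1% are above 0.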

How the data were processed

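RNA of 20 CD8 T cell libraries and 19 libraries labelled bulk tumour was depleted of ribosomal RNA and made into directional libraries, per the labels' protocols. Values were deposited by the authors as TPM in a table for each set, made with kallisto 0.45 on GRCm38 per the submitters' processing notes. Which annotation was used, and how transcripts were summed, is not given in the sources used here. TPM keeps no read counts, so depth and counting error are unknown, and the number of libraries limits the precision. Of 28023 symbols, 27787 were matched to GENCODE M21, and 0 value columns were without a sample. The tables were scaled, filtered and fitted separately.

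Genes reaching 1 TPM in 4 or more libraries of their table were tested (12942 and 13326). TPM was divided by median-ratio factors, a pseudocount of 1 was added, and log2 values were fitted with limma 3.58.1 in R 4.3.3 (a mean for each of the 4 groups, empirical Bayes with trend, Benjamini-Hochberg over all genes, two-sided). A pseudocount understates the change of low genes. Repeat entries were found from GENCODE M21 transcripts: 30% or more of the bases in simple runs, or 10% of 21-mers shared with satellite. Single values were compared by exact permutation over 252 splits. Libraries of the 2 tables were compared by Pearson correlation across genes averaging over 10 scaled TPM, or V segments over 1, in both tables, a check chosen after seeing the data. The method was tested on simulated data.

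Named genes were the 12 largest called changes in each direction averaging 5 TPM or more, or, where fewer than 3 were called, the 3 of smallest p, then the 2 members of smallest p in each of 23 function lists and a fixed set of receptors, effector genes and markers. Gm10108, Rpl13-ps6, Rpl17-ps5, receptor segments and further list members were named after their values were seen. The members of the lists, the 12 marker lists and the rule were chosen with earlier results of these data known. Alternatives were other scalings, pseudocounts, filters, array weights, a fit of the 10 libraries and the leaving out of libraries.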

Additional observations from a re-analysis of the deposited data

Results flagged for a closer look

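In 27 of 170 groups of 5 values examined a library stood outside the others by Dixon's criterion, and most were in CD8-16 and CD8-19. The criterion's rate of about 1 in 20 groups holds for independent normal values. These values come from the same libraries and are not independent, so the count is a description. CD8-19 had the highest repeat share, 72.3%, against 12.05% to 29.27% in the others. It also had the highest scaled TPM of Ints2 (20.35), E2f8 (11.87), Pycr1 (29.4), Slc7a11 (7.988), Cd4 (6.685) and Tigit (194.0, against 13.01 to 42.15).

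CD8-16 had the lowest sum of T cell markers (6385, against 11310 to 12090) and the lowest Cd8a (139.6, against 246.6 to 269.4). Its sums were the highest for markers of dendritic cells (487.4), neutrophils (60.49), red cells and platelets (1374), fibroblasts (1054) and endothelial cells (3974, of which Pecam1 was 3972). Single genes highest in CD8-16 were Plod2 (12.32), mt-Nd4l (671.2), mt-Nd6 (11230), Iigp1 (21.37), Idi1 (170.3) and the pseudogene Rpl17-ps5 (446.0). CD8-17 had the highest sum of epidermis and muscle markers (48.6).

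Among CZA libraries under anti-PD-1, CD8-6 was highest for Coa7 (23.07), Psme1 (701.1) and Foxp3 (0.7569), CD8-9 for Serpinb9 (86.99) and Hilpda (260.7), and CD8-8 was lowest for Gm10108 (229.7, against 301.4 to 317.8).

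The DAV132 effect on Coa7 differed between the antibodies by a test of the difference itself, an interaction of -1.83 on the log2 scale (limma adjusted p = 0.0166), with lower values in 5 of 5 CZA+DAV132 libraries under anti-PD-1.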

How the results depend on the processing

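No paired analysis was possible because the library numbers in the labels are unique to each group. For each change below the cause was not tested, except that leaving out libraries makes groups without overlap more frequent by construction. Higher and lower calls under anti-PD-1, 0 and 3 as reported, were 1 and 3 with no filter, 1 and 13 at a mean of at least 5 TPM, 218 and 562 with array weights, 1 and 2 without CD8-16 and CD8-19, 0 and 5 with the deposited TPM, 0 and 1 with factors from genes of at least 20 TPM, 0 and 8 with quantile normalization and 0 and 0 in the fit of the 10 libraries alone. With each library left out they ranged over 0 to 217 and 0 to 389. Isotype calls, 3 as reported, were 0 with the deposited TPM and 2 to 3 without a library. Interaction calls, 1 as reported, were 0 with the deposited TPM, 2 with array weights and 0 to 1 without a library. Bulk tumour calls, 2 as reported, were 0 with the deposited TPM, 0 with quantile normalization, 6 with a pseudocount of 0.1, 1 at a mean of at least 5 TPM, 46 with array weights, 4 without T-023 and T-026 (chosen after seeing the data) and 0 to 8 without a library.

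Genes without overlap on the higher side, 154 as reported, were 50 with the deposited TPM, 388 with factors from genes of at least 20 TPM and 452 without CD8-16 and CD8-19. On the lower side, 230 as reported, they were 71 with those factors, 138 with TPM rescaled without repeats and 554 without these libraries. Leaving out 1 library gave 177 to 704 and 254 to 787. The difference in repeat share was 9.35 to 24.4 points and that in olfactory and vomeronasal share 0.00659 to 0.0106 points.

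Signs turned for 5 named genes, none past the threshold: Havcr2 (-0.26), Tox (-0.033) and Mki67 (-0.17) with the deposited TPM, Lag3 with factors from genes of at least 20 TPM (0.025) and without CD8-16 (0.093), and Tigit with those factors (0.18), with repeats removed (0.018), with quantile normalization (0.034) and without CD8-16 (0.40), CD8-18 (0.027), CD8-20 (0.095), CD8-9 (0.18) or CD8-10 (0.15). With each library left out Lag3 ranged from -0.35 to 0.093 and Tigit from -0.55 to 0.40. Of 68 named genes, 32 not called as reported passed with array weights, 24 without CD8-8 and 16 without CD8-20. Of all 12942 tested genes, 780 (6.03%) passed with array weights, and the counts without either library are given above. Many named genes were taken for a small p in this contrast, so the 68 are not a fair sample of all genes. For Coa7 the log2 change was -1.76 to -1.14 and the limma adjusted p 0.00493 to 0.129 over the alternatives.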

Other observations

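Segments of the antigen receptor, which differ between T cell clones, were among the largest differences on the lower side. Trbv15 averaged 7.06 and Trbv12-1 14.1 scaled TPM in CZA+DAV132 libraries under anti-PD-1, against 48.2 and 67.5 in CZA libraries (log2 changes -2.30 and -2.25, limma adjusted p = 0.112 each), with no overlap between the groups. In the libraries labelled bulk tumour their log2 changes were -1.87 and -0.57. They were chosen after their values were seen.

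Rpl17-ps5, a processed pseudogene also chosen after its values were seen, had the largest difference on the higher side in CD8 cells. It was at 446.0, 19.3, 41.0, 25.3 and 21.7 scaled TPM in CZA+DAV132 libraries, against 0.924, 3.09 and 6.29 in 3 CZA libraries, the other two being listed at 0 (log2 change 4.38, which depends on the pseudocount, limma adjusted p = 0.0782). In the libraries labelled bulk tumour it was at 834.9, 1950, 427.7, 580.9 and 1062 in bulk CZA+DAV132 libraries, against 6.56, 18.6, 40.7, 391.5 and 160.4 in bulk CZA libraries (log2 change 4.02). The groups did not overlap in either set, and reads shared with its parent gene cannot be told apart from its own.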
